A study of Homo sapiens with 8 samples.

Results

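The comparison described here is osimertinib against vehicle in NCI-H1975, a long-established line of human lung adenocarcinoma that carries mutant EGFR, a growth factor receptor. Its differences come from 4 of the series' 8 arrays, taken by their treatment labels: vehicle (DMSO) and 10 nM osimertinib, each without L-histidinol and with 2 mM L-histidinol, all for 24 hours. The other 4 arrays hold 1 µM alpelisib, alone or with 10 nM osimertinib, again without and with L-histidinol; they add to the estimate of the spread, since all 8 arrays entered the fit. All cells grew in RPMI1640 with 10% fetal bovine serum and kanamycin, and total RNA was read on Affymetrix U133 Plus 2.0 expression arrays. Every condition has 1 array, so an osimertinib array was compared with the vehicle array of the same L-histidinol status and the fitted difference is the mean of these 2 pair differences. Such a comparison asks how transcripts change when signalling from mutant EGFR is blocked.

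Osimertinib binds mutant EGFR covalently. Active EGFR drives the RAS, RAF, MEK and ERK kinase cascade and PI3K with its kinase AKT; ERK switches on its own feedback inhibitors, AP-1 and ETS factors and the D cyclins, while AKT holds FOXO transcription factors out of the nucleus. L-histidinol is a histidine analog that blocks charging of the histidine tRNA and is used to mimic histidine starvation, and alpelisib blocks the alpha isoform of PI3K.

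The deposited values are linear intensities normalized by the authors. They were compared as log2 values, so a difference of 1 is a 2-fold change, and differences are given ± the standard error of the fit. Median intensity lay between 21.8 and 22.4 on the 8 arrays. The labelled cell type was checked first. The epithelial adhesion molecule EPCAM lay at 4453 and 4786 on the vehicle arrays, and the simple epithelial keratins KRT7 (6969 and 7810) and KRT18 (6804 and 4909) were brighter; in each such pair of values the first array is without and the other with L-histidinol. The leukocyte marker PTPRC (7.34 and 7.03) and the fibroblast collagen COL3A1 (7.22 and 6.86) lay far below the array median. Not every fibroblast collagen did: COL1A1 stood at 374 and 278 on the vehicle arrays, above the median. These markers therefore do not show that fibroblast collagens were absent. Nothing in the labels says that arrays came from separate cultures, so the p-values of limma measure only the spread between these arrays, which may be technical. With 1 array per condition, it is measured by how far the arrays depart from a sum of a drug and an L-histidinol effect. In RNA from whole cultures, fewer cells of a kind and less RNA per cell cannot be told apart.

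Of 19775 genes tested, 6011 (30.4%) passed limma's test at a Benjamini-Hochberg adjusted p below 0.05 and are named called here. Higher with osimertinib were 3246 genes (16.4%) and lower 2765 (14%). When each array was first centred on its median, which moved the median difference of all genes from 0.01 to -0.09, the split was 2289 higher and 4123 lower. Called changes of at least 2-fold numbered 342 upward (1.73%) and 212 downward (1.07%), and those of at least 4-fold 27 and 12. All called genes had the same sign in both pairs. A call rests on the mean of these same pair differences, so it selects for equal signs. Across the 11625 genes with a mean log2 intensity of at least 5, the pair differences without and with L-histidinol correlated at r = 0.894, and across all 19775 genes at r = 0.789; genes are not independent replicates. Without the osimertinib array that lacks L-histidinol, 3755 genes were called.

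**Figure D1:**
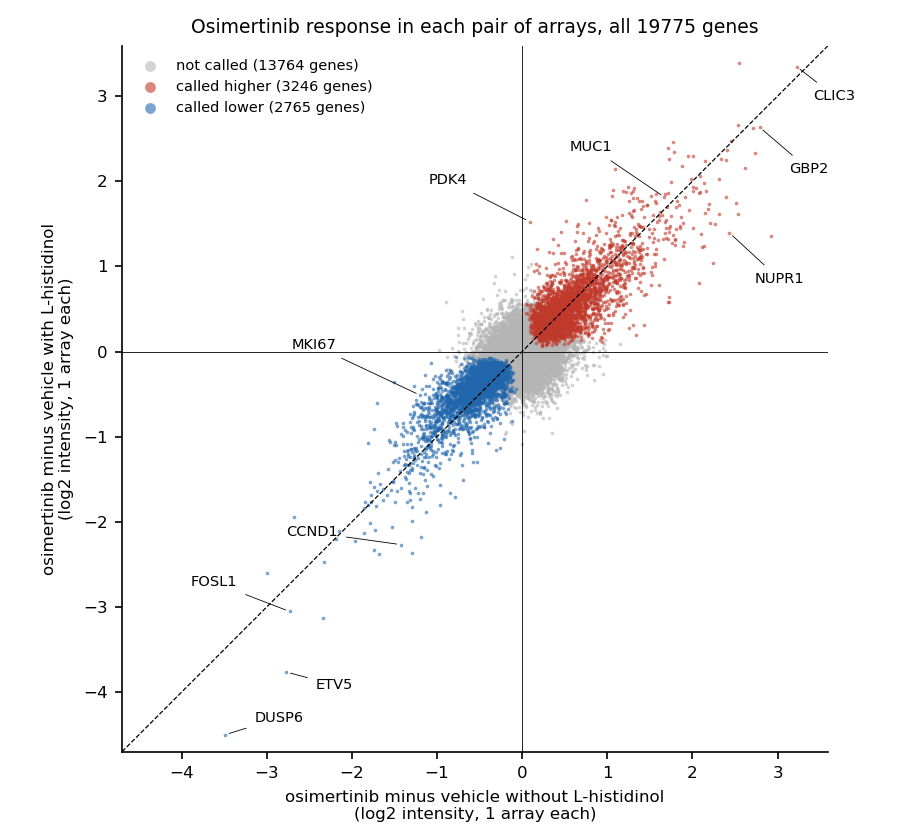
Difference between osimertinib and vehicle (log2 intensity) in the pair of arrays without L-histidinol, horizontal, and with it, vertical, for 19775 genes. Points are genes (red, called higher, 3246; blue, called lower, 2765; grey, not called), the dashed line marks equal differences, and DUSP6, at -3.49 and -4.50, lies lowest in both pairs.

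Feedback inhibitors of ERK signalling and the ETS factors it induces were mostly lower with osimertinib. Of 19 such genes measured, 15 were lower and 1 higher, with a median difference of -1.01 beside 0.01 over all genes tested. Lower were thus 78.95% and higher 5.26%, beside 14% and 16.4% of all genes. DUSP6, the phosphatase that removes the activating phosphates from ERK, had intensities of 177 and 363 on the vehicle arrays and 15.8 and 16.03 on the osimertinib arrays. Both osimertinib values lie below the array medians, and the fitted difference was -3.99 ± 0.18, or 15.9-fold (adjusted p = 1.8e-07). The ETS factor ETV5 went from 258 and 450.2 to 37.9 and 33.1, a difference of -3.27 ± 0.17 (adjusted p = 4.1e-07). Its relative ETV4 went from 102 and 120.0 to 23.0 and 27.8, a difference of -2.13 ± 0.11. In all these genes the vehicle and osimertinib arrays lay far apart. With the mean over probe sets in place of the brightest one, ETV5 gave -1.86.

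Other feedback genes fell by less. PHLDA1, a pleckstrin homology domain protein, stayed bright (1741 and 2618 with vehicle, 530.0 and 743 with osimertinib) and fell by 1.77 on the log2 scale. DUSP4, a nuclear ERK phosphatase, went from 142 and 151 to 41.7 and 47.0 and SPRY4, a Sprouty inhibitor of RAS activation, from 67.3 and 82.1 to 26.0 and 29.7. Their differences were -1.73 ± 0.10 and -1.42 ± 0.19. The member that rose was DUSP1, a stress-induced phosphatase (267 and 259 with vehicle, 481 and 369.9 with osimertinib; 0.68 ± 0.11). Its probe set is among those whose names mark possible cross-hybridization, named marked here. Without these only 16 genes of the list were measured, and none of the 16 was called higher. With all probe sets, the members that were not called were ERRFI1 (-0.17), an inhibitor of EGFR itself, SPRED3 (-0.11) and the RAS inactivator NF1 (-0.08, dim on all arrays). These and DUSP1 are named after their values were seen.

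AP-1 and the other immediate early factors split. Of 20 measured, 5 were lower and 5 higher, with a median of 0.02. Each share is 25%, beside 14% lower and 16.4% higher of all genes. The AP-1 subunit FOSL1 had the third largest fall of all genes with a mean log2 of at least 5, from 1594 and 1227 to 240.0 and 148, a difference of -2.89 ± 0.09 (adjusted p = 1.5e-08). The zinc finger factor EGR1, a direct reader of ERK activity, went from 84.1 and 204 to 34.4 and 39.6 (-1.83 ± 0.25), and the vehicle array with L-histidinol was the highest by far. MAFF, a small MAF factor, fell by 1.42 on the log2 scale. Among the members that rose were JUNB, an AP-1 subunit that restrains proliferation (271 and 292 with vehicle, 484 and 549.6 with osimertinib; 0.87 ± 0.07), and ATF3, a stress-induced factor (0.73 ± 0.08; 0.34 with the mean over probe sets). The arrays of ATF3 overlapped, since L-histidinol raised it in both groups (84.0 and 144 with vehicle, 138 and 243 with osimertinib). JUN, measured at 0.02, was not called.

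Ligands of the EGF family were measured for 8 genes, of which 3 fell (37.5%, beside 14% of all genes) and none was called higher. TGFA, a ligand of EGFR, went from 210.0 and 190.2 to 60.1 and 54.6 (-1.80 ± 0.09, adjusted p = 2.7e-07). EREG, which binds EGFR and ERBB4, went from 317 and 287 to 113 and 134 (-1.29 ± 0.13). NRG1, a ligand of ERBB3 and ERBB4, went from 247 and 256 to 138 and 111 (-1.02 ± 0.10), but the marked probe sets carry this value and without them it was -0.13 (adjusted p = 0.65). With the mean over probe sets TGFA gave -1.03 and EREG -0.81. The other ligands differed by 0.05 (NRG4, dim on all arrays), 0.11 (NRG2), 0.15 (BTC), 0.20 (EGF) and 0.29 (HBEGF). HBEGF stood at 162 and 138 with vehicle and 270.0 and 123 with osimertinib, so its pairs disagreed in sign, and without the osimertinib array with L-histidinol it was called higher at 0.67.

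Receptors moved in both directions: of 25 receptors, adaptors and their partners, 8 were higher and 6 lower, and the median was -0.04. Such shares, 32% and 24%, stand beside 16.4% and 14% of all genes. ERBB3, the kinase-impaired partner that couples to PI3K, went from 338 and 326 to 772 and 723 (1.17 ± 0.07, 2.25-fold). ERBB2 went from 309.7 and 255 to 608 and 489 (0.96 ± 0.07). EGFR itself went the other way, from 499 and 654 to 345 and 448 (-0.54 ± 0.07, adjusted p = 9.5e-05). The ephrin receptor EPHA2 fell by 1.25 on the log2 scale and AXL, a receptor often linked with EGFR inhibitor tolerance, by 0.57. FGFR3 rose (1.07 ± 0.15), with its dimmest array at 31.3 in vehicle with L-histidinol. MET, at 2914 and 2801 and 2383 and 2754, was not called (-0.16 ± 0.07, adjusted p = 0.119) but was lower with arrays centred on their medians (-0.26, adjusted p = 0.011), where the list counted 5 higher and 7 lower. The PI3K adaptors GAB1 (0.62 ± 0.10) and IRS2 (0.37 ± 0.12) were higher. The arrays of IRS2 overlapped, and it was not called without either alpelisib array (adjusted p = 0.064 and 0.066), without the osimertinib array with L-histidinol (0.18, adjusted p = 0.44) or without the vehicle array (0.29, adjusted p = 0.22). With the mean over probe sets ERBB3 gave 0.39, ERBB2 0.52, FGFR3 0.45 and EGFR -0.27, each still called.

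The kinase cascade between receptor and ERK moved less. Of its 15 measured components 4 were higher and 3 lower, with a median of 0.10. That is 26.7% and 20%, beside 16.4% and 14% of all genes. CBLB, a ubiquitin ligase that removes activated receptors, had the largest difference, from 85.9 and 100.3 to 222 and 214 (1.23 ± 0.11). The RAS exchange factor SOS2 rose by 0.69, a call lost with the mean over probe sets (0.23, adjusted p = 0.086). The ERK kinase MAP2K1 (-0.49 ± 0.07) and the phosphatase PTPN11 (-0.31 ± 0.06) fell.

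**Figure D2:**
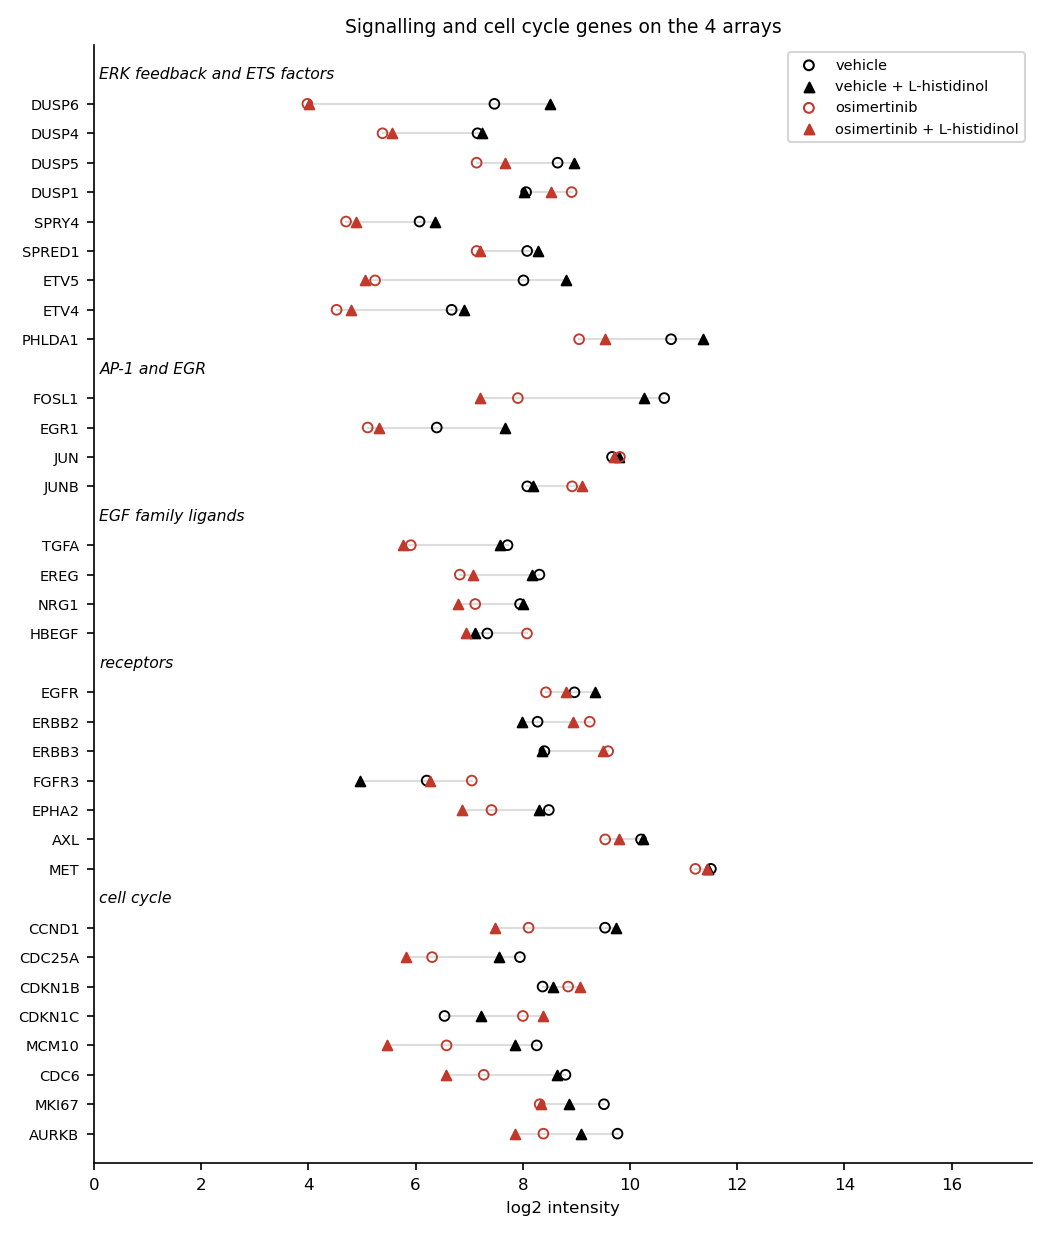
Intensity (log2) of signalling and cell cycle genes on the 4 arrays: black, vehicle; red, osimertinib; circles, without L-histidinol; triangles, with it. Grey lines span each gene's range, and for DUSP6 the osimertinib arrays lie together near 16 while the vehicle arrays lie at 177 and 363 on the linear scale.

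Of 21 G1 cyclins, their kinases, E2F factors and inhibitors measured, 14 were lower and 4 higher, with a median of -0.68. The share lower was 66.7%, beside 14% of all genes, and the share higher 19.05%, near the 16.4% of all genes. CCND1, the cyclin that ERK signalling sustains, went from 741 and 856 to 276 and 178 (-1.85 ± 0.17, adjusted p = 1.9e-05). The S phase cyclin CCNE2 went from 287 and 209.9 to 125 and 46.5 (-1.68 ± 0.21), and the phosphatase CDC25A, which frees CDK2, from 246 and 189 to 79.2 and 56.4 (-1.69 ± 0.11). All members that rose were CDK inhibitors: CDKN1C (1.31 ± 0.12), CDKN2B (1.23 ± 0.11; 0.76 with the mean over probe sets), CDKN1A (0.67 ± 0.11) and CDKN2A (0.38 ± 0.08), the last named after its value was seen. CDKN1B, counted with the FOXO targets, rose by 0.49.

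Every one of 27 measured genes of DNA replication and nucleotide supply was lower, with a median of -1.17. The replication factor MCM10 went from 306 and 231 to 95.4 and 44.3 (-2.03 ± 0.19). CDC6, which loads the MCM helicase onto origins, went from 444 and 396 to 154 and 94.7 (-1.80 ± 0.18, 3.47-fold), and ORC1, a subunit of the origin recognition complex, from 129 and 82.2 to 35.8 and 24.1 (-1.81 ± 0.17). On all of these the osimertinib array with L-histidinol was the lowest of the 4. GINS2 fell by 1.43, a value that was 0.02 (adjusted p = 0.95) without the marked probe sets. Genes of homologous recombination and crosslink repair were lower in 12 of 12 cases, median -0.95, led by the exonuclease EXO1 (-1.77 ± 0.21) and the helicase BLM (-1.27 ± 0.15).

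Mitosis genes were lower in 26 of 30 cases with none higher, and the median was -0.69. The kinase AURKB went from 871 and 545 to 334 and 232 (-1.31 ± 0.15), and the spindle checkpoint protein MAD2L1 from 995 and 1053 to 466 and 512 (-1.07 ± 0.12). MKI67, the proliferation marker, stood at 731 and 464 with vehicle and 318 and 325 with osimertinib (-0.86 ± 0.16; -0.56 without the vehicle array). In the pair without L-histidinol the list's median difference was -0.91 and in the pair with it -0.40. That gap between the main pairs was not tested by itself; the test of the L-histidinol effect averaged over absence and presence of alpelisib called none of these genes. The count rests in part on single arrays: without the osimertinib array 14 mitosis genes were called lower, without the vehicle array 15, and without the marked probe sets 16 of the 23 then measured.

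Promoters of the replication, repair and mitosis lists were searched for the letters that E2F factors and the cell cycle homology region are known by. Members entered whether or not they were called. Sequences of 300 bases around RefSeq start sites, 250 before and 50 after, were taken from GRCh38.p14, and each motif was sought on both strands. TTTNNCGC, the E2F letters, stood in 15 of the 25 replication promoters given (60%), beside 8.7% of all 15384 promoters, and in 2 of 11 of the repair list (18.2%). TTTGAA, the cell cycle homology region, stood in 14 of 24 mitosis promoters (58.3%), beside 11.9% of all. A match is a description of the letters and not a bound site. The lists here and below were put together by function or known regulator. Motif shares therefore describe the lists and do not measure the activity of a factor on these arrays. The promoters of CDC6 (chr17:40287629-40287928, forward strand) and MAD2L1 (chr4:120066799-120067098, reverse strand) are shown because they belong to the members with the largest falls among those with a match; capitals mark the match on either strand, and each sequence runs 5′ to 3′ along its gene.
CDC6: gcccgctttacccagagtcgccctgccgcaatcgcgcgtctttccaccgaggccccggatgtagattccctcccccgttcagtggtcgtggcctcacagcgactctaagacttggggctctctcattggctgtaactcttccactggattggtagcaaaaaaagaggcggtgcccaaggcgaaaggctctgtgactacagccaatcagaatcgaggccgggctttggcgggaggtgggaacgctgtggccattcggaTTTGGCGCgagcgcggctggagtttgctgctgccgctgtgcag
MAD2L1: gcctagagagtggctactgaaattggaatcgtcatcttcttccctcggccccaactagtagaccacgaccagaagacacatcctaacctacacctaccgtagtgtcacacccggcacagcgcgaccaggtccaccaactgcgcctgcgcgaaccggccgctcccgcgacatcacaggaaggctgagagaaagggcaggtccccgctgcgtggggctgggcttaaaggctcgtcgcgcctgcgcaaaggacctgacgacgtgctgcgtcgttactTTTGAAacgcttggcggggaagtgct

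MYC and the genes of ribosome biogenesis were lower in 23 of 23 cases, with a median of -0.70. Without the marked probe sets 17 of 19 were lower, and RRP12, a ribosome assembly factor named after its values were seen, was called higher (0.41, adjusted p = 0.026) in place of -0.80. MYC, the transcription factor that drives ribosome production, went from 1891 and 2731 to 1168 and 1813 (-0.64 ± 0.07, adjusted p = 3.5e-05). L-histidinol raised MYC in both groups, and the lower vehicle array stood just above the higher osimertinib array. ODC1, the first enzyme of polyamine synthesis, fell by 1.10 and SRM, the next one, by 0.91 on the log2 scale. The ribosome assembly factors NOP16 (-1.02 ± 0.13; -0.52 with the mean over probe sets), WDR43 (-0.98 ± 0.10), BYSL (-0.96 ± 0.13) and RRP9 (-0.95 ± 0.10) fell alike. CACGTG, the E-box that MYC binds, stood in 9 of the list's 18 promoters given (50%), beside 8.9% of all.

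Genes that FOXO factors induce, together with PI3K feedback genes, rose in 20 of 25 cases with none lower, median 0.77. TP53INP1, a stress protein that acts in autophagy, went from 18.1 and 19.6 to 121 and 98.6 (2.53 ± 0.12, adjusted p = 2e-07; 0.75 with the mean over probe sets). FBXO32, a muscle atrophy ubiquitin ligase subunit and classical FOXO target, went from 598 and 724 to 2466 and 2750 (1.98 ± 0.07). YPEL3 and YPEL5, small zinc-binding proteins of the Yippee family, rose by 2.20 and 1.81, and CCNG2, an atypical cyclin that slows the cell cycle, went from 134 and 184 to 431 and 535 (1.61 ± 0.08). TXNIP, which limits glucose uptake, stood at 1503 and 2884 with vehicle and 3026 and 4113 with osimertinib (0.76 ± 0.14; 0.47 without the vehicle array). On the alpelisib arrays YPEL3 stood 2.13 and FBXO32 1.29 above vehicle on the log2 scale. TGTTTAC, a forkhead motif, stood in 5 of 21 promoters given (23.8%), beside 2.62% of all. The list was put together from FOXO targets and PI3K feedback genes, so this share does not measure FOXO activity on these arrays.

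In the BCL2 family, which sets the threshold for apoptosis, 4 of 17 genes were higher and 5 lower. These shares are 23.5% and 29.4%, beside 16.4% and 14% of all genes. BMF, a death-promoting BH3-only protein, went from 30.9 and 28.7 to 69.0 and 67.0 (1.19 ± 0.11). BCL2L11, which encodes BIM and is restrained by ERK, went from 190.0 and 248 to 302 and 387 (0.66 ± 0.07), but with the mean over its probe sets the value was 0.11 (adjusted p = 0.31). BCL2L1, which encodes the survival protein BCL-XL, went from 465 and 496 to 315 and 248 (-0.78 ± 0.10). PMAIP1, a BH3-only protein that opposes MCL1, fell by 0.53, while MCL1 was not called (-0.11 ± 0.07, adjusted p = 0.354) except at -0.32 with the mean over probe sets and -0.45 without the marked ones. Without the osimertinib array 2 members were called higher, and HRK (0.51 ± 0.11) was not among them (0.43, adjusted p = 0.076).

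Interferon response genes rose in 27 of 35 cases, median 0.58. GBP2, a guanylate-binding protein, went from 37.3 and 26.2 to 258 and 163 (2.71 ± 0.12, 6.55-fold, adjusted p = 1.8e-07), and GBP1 from 88.2 and 102 to 437 and 414 (2.17 ± 0.17). The antiviral GTPase MX1 went from 94.0 and 260.1 to 276 and 536 (1.30 ± 0.23; 0.85 without the vehicle array), so the vehicle array with L-histidinol came close to the osimertinib array without it. SAMD9L, a restrictor of growth and virus spread, rose by 1.58 and the membrane protein IFITM1 by 1.39. OAS3 (0.07), USP18 (0.09) and the chemokines CXCL10 (-0.03) and CXCL11 (-0.14) were not called, and IFI44 was lower (-0.27 ± 0.08), a call lost without the osimertinib or the vehicle array; these are named after their values were seen.

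Antigen presentation genes rose in 17 of 22 cases, median 0.45. The largest rises belonged to MHC class II: HLA-DMA, a peptide editor, went from 119.9 and 66.6 to 357 and 239 (1.71 ± 0.10), and its partner HLA-DMB from 65.0 and 61.0 to 164 and 165 (1.39 ± 0.11). HLA-DRA (0.95 ± 0.09) and the invariant chain CD74 (0.87 ± 0.10; 0.38 with the mean over probe sets) rose with them. In the class I pathway, the peptide-loading chaperone TAPBP rose by 0.76 and the immunoproteasome subunit PSMB9 by 0.60. The member that fell was TAP2, a subunit of the peptide transporter (488 and 428 with vehicle, 299 and 312 with osimertinib; -0.58 ± 0.10), named after its value was seen. HLA genes are alike in sequence, so their probe sets may share transcripts.

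GAAANNGA, the letters at the core of the element that IRF factors bind, stood in 20 of the 27 interferon promoters given (74.1%) and in 10 of 17 of the antigen presentation list (58.8%), beside 18% of all. The promoter of GBP1 (chr1:89065159-89065458, reverse strand) is shown as that of the largest rise with a match, with matches in capitals.
GBP1: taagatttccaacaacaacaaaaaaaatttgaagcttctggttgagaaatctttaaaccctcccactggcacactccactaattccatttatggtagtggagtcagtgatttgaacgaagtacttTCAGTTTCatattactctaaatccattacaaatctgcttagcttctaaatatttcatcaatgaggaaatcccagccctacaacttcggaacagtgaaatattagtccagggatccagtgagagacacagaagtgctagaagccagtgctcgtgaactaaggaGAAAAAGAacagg

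Lysosomal genes rose in 24 of 32 cases and 2 fell, with a median of 0.36. The protease CTSH went from 398 and 322 to 1340 and 969 (1.67 ± 0.08, adjusted p = 2.1e-07), CTSF from 183 and 167 to 399 and 346 (1.09 ± 0.07) and CTSD from 301 and 386 to 664 and 714 (1.01 ± 0.10). GRN, a lysosomal growth factor precursor, rose by 0.99. GLA (-0.57) and CTSL (-0.24) were the members that fell, named after their values were seen, and 1 of them was called without the osimertinib array with L-histidinol. Of 26 autophagy genes, 13 were higher and 4 lower (1 without the osimertinib array), median 0.22. The share of autophagy genes higher was 50%, beside 16.4% of all genes, and the share lower 15.4%, near the 14% of all genes. The initiating kinase ULK1 went from 69.0 and 88.9 to 168 and 215 (1.28 ± 0.09), and the phosphoinositide-binding WIPI1 from 103 and 139 to 271 and 226 (1.05 ± 0.13). The receptor OPTN rose by 1.02 and ATG14, a subunit of the autophagy PI3K complex, by 0.72. Among the 4 that fell were ATG4D (-0.49) and ATG16L1 (-0.48), named after their values were seen.

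CACGTG, the E-box letters that MYC and the lysosomal regulators TFEB and TFE3 can bind, stood in 10 of 23 lysosome promoters given (43.5%) and in 1 of 24 of the autophagy list (4.17%), beside 8.9% of all. The list of MYC and ribosome biogenesis, which fell, held the same letters in 50%. The promoter of CTSF (chr11:66568557-66568856, reverse strand) has the largest rise among lysosomal genes with a match.
CTSF: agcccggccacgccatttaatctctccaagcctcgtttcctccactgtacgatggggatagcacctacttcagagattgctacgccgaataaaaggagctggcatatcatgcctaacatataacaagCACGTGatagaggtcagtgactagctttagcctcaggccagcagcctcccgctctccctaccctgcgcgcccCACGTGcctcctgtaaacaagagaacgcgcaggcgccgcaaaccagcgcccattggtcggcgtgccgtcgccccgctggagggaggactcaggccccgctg

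Genes of the lung lineage and of simple epithelium rose in 15 of 34 cases and 1 fell, with a median of 0.21. Without the marked probe sets 7 of the 25 then measured were higher and the median was 0.13. With the mean over probe sets 9 of 34 were higher and the median was 0.11. SFTA3, a surfactant-associated gene beside NKX2-1, went from 129.5 and 54.0 to 447 and 274 (2.07 ± 0.14). NKX2-1, the lung lineage factor, went from 257 and 128 to 557 and 383 (1.35 ± 0.12, with 0.64 at its other probe set). For SFTA3 and NKX2-1, the array with L-histidinol was the lower one in each group. All probe sets of NKX2-1 and of MUC1 are marked, so neither gene is among the 25 measured without them. MUC1, an apical mucin, went from 584 and 482 to 1861 and 1694 (1.74 ± 0.07), and the epithelial ETS factor ELF3 from 128 and 97.1 to 385 and 279.6 (1.56 ± 0.10). E-cadherin, CDH1, rose by 0.59, and EPCAM was not called (-0.08 ± 0.05) except as lower with arrays centred on their medians (-0.19), where 11 members were higher and 3 lower. FOXA2, a factor of endoderm lineages, fell (-0.98 ± 0.12), and without the osimertinib array 2 members were called lower. LAMP3 (0.87 ± 0.26) was not called without the vehicle array (0.44) or without the osimertinib array with L-histidinol (0.59). Alveolar and airway genes such as SFTPC (0.12) and SCGB1A1 (0.20) were not called.

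Matrix and mesenchymal genes rose as well, in 16 of 28 cases, with 3 lower and a median of 0.41. The share higher was 57.1% and the share lower 10.7%, beside 16.4% and 14% of all genes. Without the marked probe sets 10 of the 23 then measured were higher and the median was 0.14, and with the mean over probe sets 12 of 28 and 0.22. The collagen COL1A1 went from 374 and 278 to 990.4 and 672 (1.34 ± 0.09) and TGFB2, a TGF-beta ligand, from 276 and 239.5 to 565 and 571 (1.14 ± 0.10). SNAI1, a repressor of E-cadherin, rose by 0.76, and the transmembrane collagen COL13A1 fell by 1.63. With the mean over probe sets COL1A1 gave 0.72 and COL13A1 -0.67. All probe sets of these genes are marked, so neither has a value without the marked ones. The other probe sets of COL1A1 lay between -0.11 and 1.35, and those of COL13A1 gave -0.05 and -0.33. Vimentin, VIM, was not called (-0.06 ± 0.06) except as lower (-0.16) with centred arrays, where the list counted 15 higher and 5 lower. MGP (1.51 ± 0.23, with overlapping arrays) was at 0.13 and not called without the marked probe sets. Markers of fibroblasts, blood and endothelium were measured for 16 genes, of which 4 were higher (2 without the vehicle array with L-histidinol) and 1, the endothelial receptor KDR, lower (-0.65 ± 0.15; not called without the osimertinib array or the vehicle array with L-histidinol). Of the 16, 25% were thus higher and 6.25% lower, beside 16.4% and 14% of all genes. Summed intensity of the 16 was 706 and 620 on the vehicle arrays and 1462 and 1085 on the osimertinib arrays. Without COL1A1 and COL1A2 the sum of the other 14 was 270 and 283 against 294 on both osimertinib arrays. The fibroblast marker DCN (-0.01) and PTPRC (0.02) did not pass the test. LUM, at 3.54 and 2.79 and 5.28 and 4.49, was called at the dim end of the scale, but not without the osimertinib array, the vehicle array with L-histidinol or the marked probe sets. COL1A2 (1.26 ± 0.13) was at -0.11 (adjusted p = 0.64) without the marked probe sets.

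Among integrins, proteases and other invasion genes 9 of 26 were lower and 7 higher, the latter 3 without the osimertinib array and 4 without the vehicle array. Shares lower and higher on all arrays were 34.6% and 26.9%, beside 14% and 16.4% of all genes. The collagen receptor subunit ITGA2 went from 714 and 853 to 291 and 241 (-1.56 ± 0.11), and the laminin receptor subunit ITGA6 from 700.4 and 792 to 244 and 273 (-1.53 ± 0.07). The collagenase MMP1 fell by 1.51 at low intensity, a difference of -0.67 with a pseudocount of 16, and the urokinase PLAU, bright on all arrays, by 0.83. TIMP2, an inhibitor of such proteases, rose from 853 and 801 to 1873 and 1686 (1.10 ± 0.05). TGANTCA, the AP-1 letters, stood in 5 of 17 promoters given (29.4%), beside 5.84% of all and 1 of 14 (7.14%) of the ERK feedback list.

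**Figure D3:**
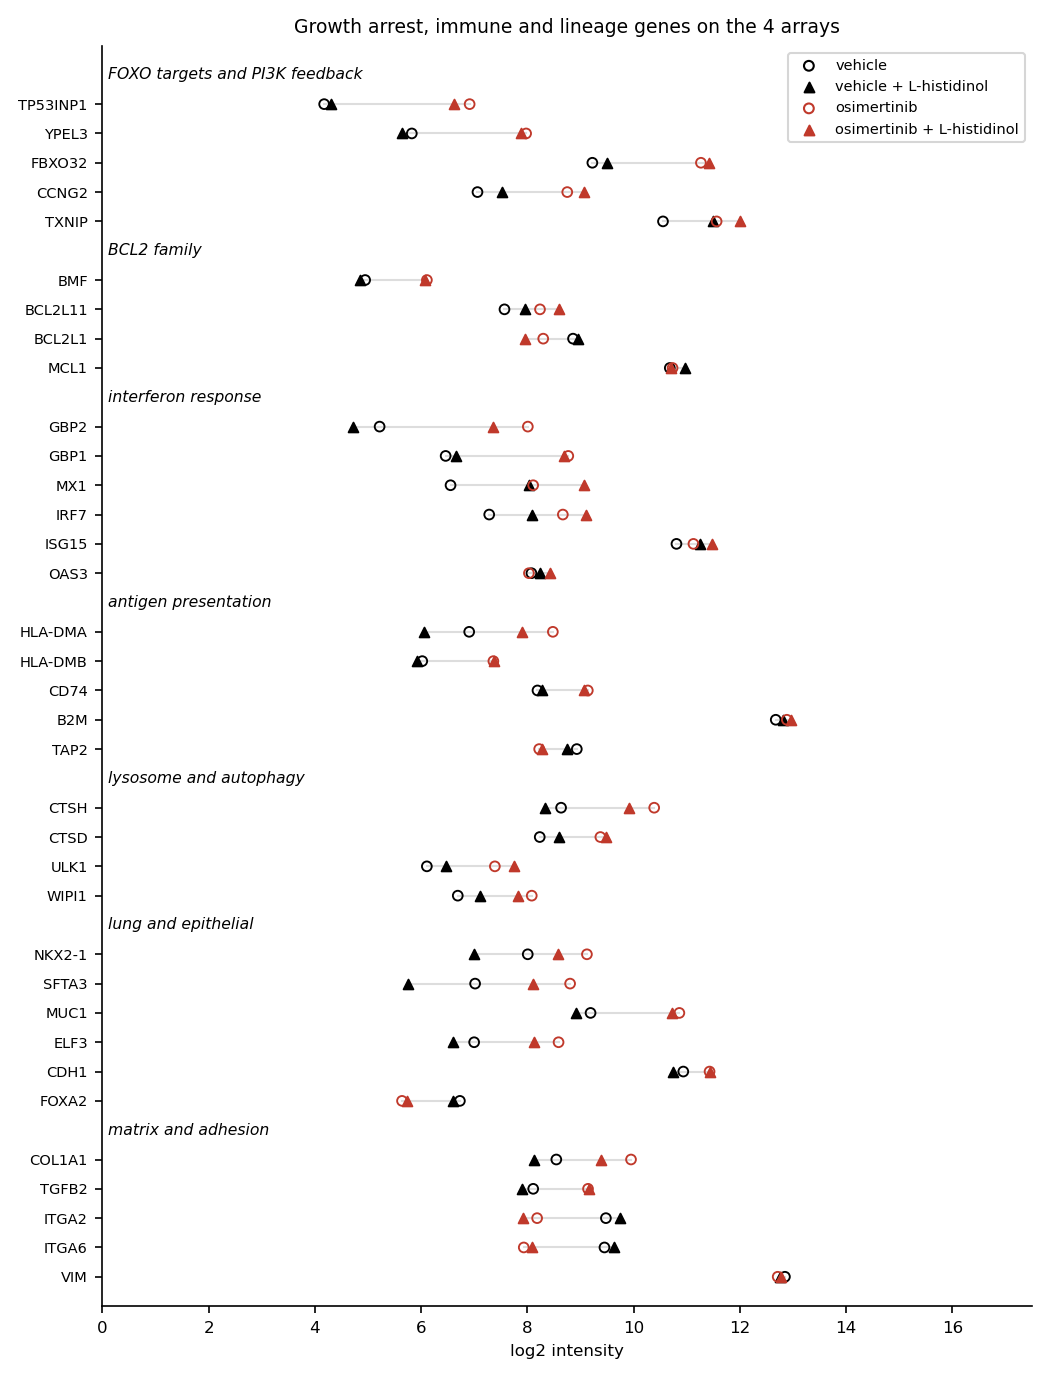
Intensity (log2) of growth arrest, immune and lineage genes on the 4 arrays: black, vehicle; red, osimertinib; circles, without L-histidinol; triangles, with it. GBP2 and TP53INP1 show wide gaps between the groups, while the arrays of OAS3, MCL1 and VIM overlap.

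Glycolysis and hypoxia genes were lower in 11 of 26 cases and higher in 3, with a median of -0.14. That is 42.3% lower and 11.5% higher, beside 14% and 16.4% of all genes. The hexokinase HK2 went from 476 and 532 to 258 and 324 (-0.80 ± 0.08) and the phosphofructokinase PFKP from 2168 and 2003 to 1573 and 1373 (-0.50 ± 0.05). Leaving out either alpelisib array or either osimertinib array left 6 called lower, and leaving out either osimertinib array left 1 called higher; with centred arrays 15 were lower and 1 higher. Fatty acid oxidation genes rose in 12 of 22 cases with none lower, median 0.27, and in 6 without the osimertinib array. PPARA, the factor that induces them, went from 52.1 and 58.7 to 111 and 129 (1.12 ± 0.09; 0.55 with the mean over probe sets) and HADHB, a subunit of the mitochondrial trifunctional protein, from 866 and 881 to 1309 and 1326 (0.59 ± 0.06). Of 27 respiratory chain genes 4 were lower and 2 higher (1 without the osimertinib array), shares of 14.8% and 7.41% beside 14% and 16.4% of all genes; when arrays were centred on their medians 10 were lower and none higher. Cytochrome c, CYCS, fell by 0.43.

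Sterol and fatty acid synthesis genes were higher in 5 of 20 cases (2 without the osimertinib or the vehicle array) and lower in 4. Shares higher and lower were 25% and 20%, beside 16.4% and 14% of all genes. LSS, which closes the sterol ring, rose by 0.73, and SREBF1, the factor that drives fatty acid synthesis, fell by 0.65. Genes of the NRF2 response and the aldo-keto reductases were higher in 7 of 21 cases and lower in 3 (1 without the osimertinib array). The share higher was 33.3%, beside 16.4% of all genes, and the share lower 14.3%, near the 14% of all genes. The reductase AKR1B10 went from 37.4 and 20.6 to 205 and 115 (2.47 ± 0.12), and the heme oxygenase HMOX1 from 1764 and 2253 to 4119 and 4617 (1.13 ± 0.07). NQO1, a standard NRF2 target, rose by 0.37.

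Stress genes that answer to amino acid supply moved in both directions under osimertinib. The share called lower was 32.3%, beside 14% of all genes, and the share called higher 16.1%, near the 16.4% of all genes. Of 31 integrated stress response genes 5 were higher and 10 lower, with a median of -0.19, and single arrays moved these counts between 1 and 8 higher and between 5 and 17 lower. The extremes came without the osimertinib array with L-histidinol (1 higher), without the vehicle array with L-histidinol (8 higher, 5 lower), without the osimertinib array (5 lower) and without the vehicle array (17 lower); with centred arrays 3 were higher and 14 lower. ATF4, its central factor, stood at 1696 and 3475 with vehicle and 1881 and 3367 with osimertinib (0.05 ± 0.09), so it followed L-histidinol and not the drug. NUPR1, a stress-induced chromatin protein, went from 80.8 and 500.5 to 437 and 1315 (1.91 ± 0.25), and the vehicle array with L-histidinol exceeded the osimertinib array without it. VLDLR, a lipoprotein receptor, fell by 1.25 at low intensity (a difference of -0.81 with a pseudocount of 16). Aminoacyl-tRNA synthetases were lower in 8 of 17 cases and higher in 2 (5 and none without the osimertinib array; none higher without either alpelisib array, the vehicle array or the osimertinib array with L-histidinol either). On all arrays 47.1% of the synthetases were lower and 11.8% higher, beside 14% and 16.4% of all genes. HARS1, the histidine enzyme that L-histidinol competes for, went from 884 and 822 to 628 and 555 (-0.53 ± 0.07).

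Some of the largest single changes lay outside these lists. CLIC3, a chloride channel family protein that acts in integrin recycling, had the largest rise, from 93.5 and 31.2 to 874 and 317 (3.29 ± 0.13, 9.75-fold, adjusted p = 6.8e-08). CCN5, a matricellular protein that restrains growth, went from 549 and 537 to 3599 and 3322 (2.67 ± 0.07), with arrays of a group almost equal. MAP7D2, a microtubule-associated protein, rose by 2.60, the beta-glucan receptor CLEC7A by 2.32 and the iron exporter SLC40A1 by 2.15, of which CLEC7A gave 1.47 and SLC40A1 1.14 with the mean over probe sets. TMT1A (2.97 ± 0.19) was at -0.04 (adjusted p = 0.88) without the marked probe sets, and PSG4 (2.38 ± 0.10) belongs to a family of near-identical genes, so which member was measured is uncertain.

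Among the falls, ACOX2, a peroxisomal oxidase of bile acid intermediates, went from 603 and 384 to 75.7 and 63.1 (-2.80 ± 0.16, adjusted p = 8.1e-07). The long non-coding transcript LINC00973 went from 170.2 and 129 to 33.8 and 23.2 (-2.40 ± 0.11) and MYEOV from 154 and 103 to 23.9 and 26.7 (-2.31 ± 0.18). The organic anion carrier SLCO4A1 fell by 2.20, the nucleoside transporter SLC29A1 by 1.90, TMEM158, a RAS-induced membrane protein, by 1.91 and RGS4, an inhibitor of G protein signalling, by 1.85 on the log2 scale. IL1RL1, the receptor of interleukin 33, fell by 1.99, and differed by -0.36 without the marked probe sets. SLC29A1 then gave -1.21, and SLCO4A1 gave -1.13 with the mean over probe sets.

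**Figure D4:**
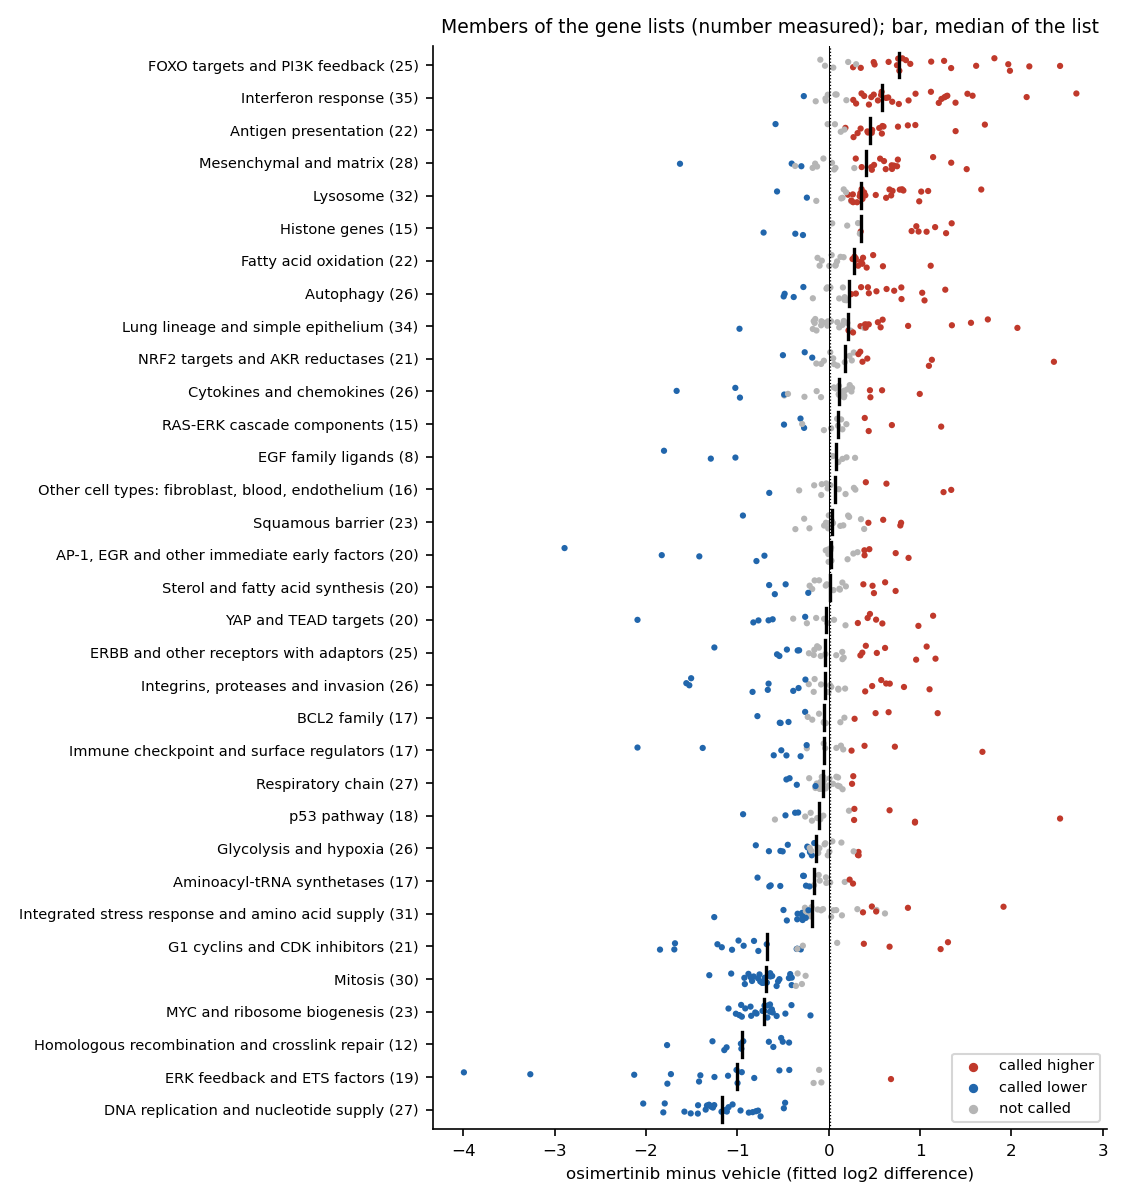
Fitted difference between osimertinib and vehicle (log2 intensity) of the measured members of 33 gene lists, ordered by median. Points are genes (red, called higher; blue, called lower; grey, not called), bars are list medians, which run from 0.77 for FOXO targets to -1.17 for DNA replication, and the dotted line is the median of all genes tested.

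Whether osimertinib moved the same genes when alpelisib was present was read on the other 4 arrays, the combination against alpelisib, whose differences share no array with the main comparison. The calls do share the spread estimated from all 8 arrays. There 5735 genes (29%) were called, 2897 higher (14.6%) and 2838 lower (14.4%). Without the alpelisib array 2968 were called and without the alpelisib array with L-histidinol 3692. Of the 3246 genes called higher by osimertinib alone, 3139 (96.7%) had the same sign on the other arrays and 2273 (70.0%) were called the same way. Of the 2765 called lower these were 2717 (98.3%) and 2193 (79.3%). Across the 11625 brighter genes the differences correlated at r = 0.915.

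The leading genes had like values on those arrays. DUSP6 changed by -3.73 ± 0.18, ETV5 by -3.08 ± 0.17, FOSL1 by -3.25 ± 0.09 and GBP2 by 2.15 ± 0.12. Replication genes fell in 27 of 27 cases with a median of -1.60, MYC and ribosome biogenesis genes in 23 of 23 and mitosis genes in 30 of 30 (median -1.02). Interferon genes rose in 29 of 35 cases and FOXO targets in 20 of 25. The ERK feedback list was lower in 12 cases and higher in 1. Matrix genes had a median of 0.12 on these arrays, with 13 higher and 4 lower. IFRD1, named after its values were seen, was the only gene called in opposite directions. In limma it differed by -0.34 (adjusted p = 0.0419) with osimertinib alone and by 0.64 (adjusted p = 0.0013) on top of alpelisib.

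**Figure D5:**
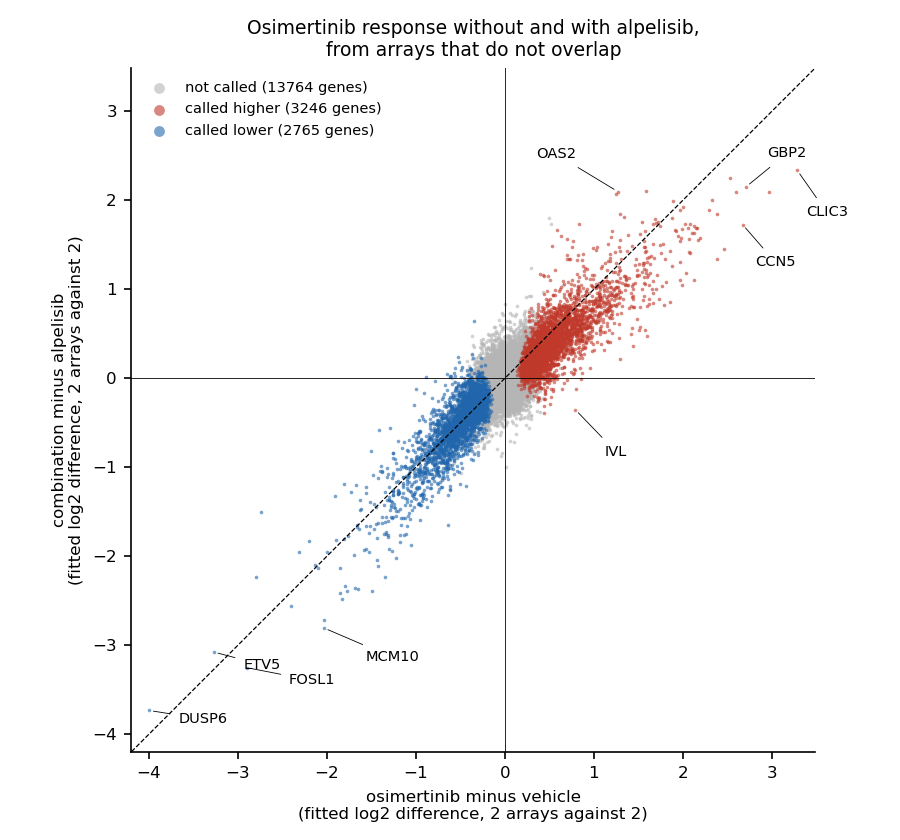
Fitted log2 difference of osimertinib against vehicle, horizontal, and of the combination against alpelisib, vertical, for 19775 genes, from arrays that do not overlap. Colours give the call of osimertinib against vehicle (red, 3246 higher; blue, 2765 lower), the dashed line marks equal differences, and DUSP6, ETV5 and FOSL1 lie lowest on both axes.

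Osimertinib was also compared directly with alpelisib, which blocks the alpha isoform of PI3K. This contrast called 2185 genes (11%), 5.54% of genes higher with osimertinib and 5.51% lower, and between 452 (without the alpelisib array) and 2751 (without the vehicle array with L-histidinol) with 1 array left out; without the alpelisib array with L-histidinol, the osimertinib array and its L-histidinol partner the counts were 806, 680 and 606. Of the ERK feedback list 15 of 19 genes were lower with osimertinib than with alpelisib and none higher. DUSP6 differed by -4.21 ± 0.18 and TGFA by -1.45 ± 0.09. Replication genes were lower than with alpelisib in 25 of 27 cases, MYC and ribosome genes in 14 of 23, mitosis genes in 6 of 30 and repair genes in 9 of 12. Interferon genes were higher in 22 of 35 cases and antigen presentation genes in 10 of 22. Of the FOXO list 10 of 25 were higher than with alpelisib and 1 lower; YPEL3 differed by 0.07 ± 0.08 (adjusted p = 0.707), and MX1 by 1.23 ± 0.23 (adjusted p = 0.0056).

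The osimertinib effect with L-histidinol minus that without it, averaged over absence and presence of alpelisib, was called for 0 of 19775 genes (0%) in limma with the variance prior of the additive fit. The smallest adjusted p was 0.164, and 1653 genes (8.36%) had an unadjusted p below 0.05. With the prior estimated from the fit with all 2-way terms, which has 1 residual degree of freedom, 896 genes were called. CCND1 differed by -1.43 without and -2.27 with L-histidinol in the main pairs, and NUPR1 rose by 2.43 and 1.39. These gaps between the main pairs were not tested by themselves, and the averaged difference was not called for either gene.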

How the data were processed

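RNA of NCI-H1975 cells was read on 8 Affymetrix U133 Plus 2.0 arrays, 1 per condition. The authors deposited a linear intensity for each of 54675 probe sets; RMA and affy are named per the submitters' processing notes, with versions not given in the sources used here. RMA fits probe sets across all arrays together, so arrays are not scaled independently. A log2 scale had been assumed for the table, so log2 of the deposited intensity was taken here. Of the probe sets 41091 have 1 gene symbol, 1801 several and 11721 none, and 62 are controls; the brightest probe set on average over the 8 arrays stood for each of 19775 genes.

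Python 3.11.15 (numpy 2.4.6, pandas 2.3.3, matplotlib 3.10.9) and limma 3.58.1 in R 4.3.3 were used. All 8 arrays entered 1 additive fit of L-histidinol and drug with an intensity trend in the variance prior and 3 residual degrees of freedom. Benjamini-Hochberg adjustment ran over all 19775 genes, and adjusted values below 0.05 were called. With 1 array per condition the number of arrays limits the precision.

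Named are the 15 largest rises and falls among called genes with equal signs in both pairs and a mean log2 of at least 5, up to 6 called members of each list by size of difference, lists of 10 or fewer genes in full, and a set of fixed genes. The lists, members and fixed genes were chosen with earlier results of these data known. Genes named outside that rule (among them JUN, OAS3, USP18, CXCL10, CXCL11, SFTPC, SCGB1A1 and the cell type markers) were chosen after their values were seen. Of the list entries 82 were not analysed here. Alternatives covered model terms, probe set choice, scaling, low values, pseudocount, variance prior and each array left out; those for osimertinib against alpelisib were added after seeing the data. Promoters are RefSeq sequences of GRCh38.p14.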

Additional observations from a re-analysis of the deposited data

Results flagged for a closer look

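For 4 genes, taken from the named genes and those called in opposite directions, osimertinib moved both pairs one way without alpelisib and both pairs the other way with it; the difference itself was not tested. Over all 6011 called genes 74 had this pattern. The transcriptional coregulator IFRD1 differed by -0.61 and -0.08 in the pairs of osimertinib against vehicle and by 0.79 and 0.50 in those of the combination against alpelisib, where the fitted difference was 0.6445. IVL, a protein of the cornified envelope, gave 1.18 and 0.41 against -0.58 and -0.13, with a fitted -0.3535 in the presence of alpelisib. S100A9, a calcium-binding protein of squamous and myeloid cells, gave 0.51 and 0.36 against -0.19 and -0.27 (fitted -0.2291). SDHC, a subunit of respiratory complex II, gave 0.29 and 0.22 against -0.08 and -0.01 (fitted -0.0437). In IVL, S100A9 and SDHC the call of osimertinib against vehicle was lost with some arrays left out. That of IFRD1 lay near the threshold in limma (adjusted p = 0.0419), and its dependence on single arrays was not examined.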

How the results depend on the processing

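Without the L-histidinol term 2466 genes were called for osimertinib against vehicle (1334 higher, 1132 lower) and 2196 for the combination against alpelisib (1002 higher, 1194 lower). With 1 array left out the first comparison called between 3755 and 6375 genes (2076 to 3424 higher, 1679 to 2951 lower); without the osimertinib array with L-histidinol 2117 were higher. The other comparison called between 2968 and 6282 (1404 to 3176 higher, 1564 to 3107 lower). Osimertinib against alpelisib called 4670 genes with all 2-way terms, 150 without the L-histidinol term, 1042 without the intensity trend and between 452 and 2751 with 1 array left out, all chosen after seeing the data. The effect of L-histidinol on the osimertinib difference called 896 genes with the prior of its own fit. Of 224 named genes, 154 kept direction and side of the threshold in every alternative that measured them (174 of the 224 had a value without the marked probe sets and 214 with a mean log2 of at least 5), 61 lost and 5 gained the call in at least 1, and 7 changed sign, each without the marked probe sets: TMT1A (-0.0443), GINS2 (0.0181), TKT (-0.18), COX5B (-0.0576), NFKBIA (-0.0774), FARSB (0.0023) and COL1A2 (-0.11). There another probe set stands for the gene. For the counts above the cause was not tested, except that leaving out an array also removes a residual degree of freedom. The comparison is paired by L-histidinol status, and the fit without the L-histidinol term is the one without that pairing. Values near the bottom of the intensity scale, such as those of LUM or NF1, carry little signal.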

Other observations

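Surface proteins that regulate immune cells were lower in 7 of 17 cases and higher in 4. These shares are 41.2% and 23.5%, beside 14% and 16.4% of all genes. Without the osimertinib array 3 were lower, and without the osimertinib array with L-histidinol 2 were higher. CD274, which encodes the checkpoint ligand PD-L1, had intensities of 298 and 376 with vehicle and 153 and 108 with osimertinib (-1.38 ± 0.15, adjusted p = 4.6e-05 in limma), and -1.06 ± 0.15 on the arrays with alpelisib. NT5E, the ectoenzyme CD73 that makes adenosine, went from 1272 and 1242 to 327 and 265 (-2.09 ± 0.08). Both were thus lower on both osimertinib arrays while the interferon list, to which CD274 is often counted, was mostly higher. PVR, a ligand of the receptor TIGIT, fell by 0.60 on the log2 scale. VTCN1, another checkpoint ligand, rose at low intensity, from 15.2 and 9.80 to 66.4 and 23.1 (1.68 ± 0.22; 1.00 with a pseudocount of 16).

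Histone genes rose in 8 of 15 cases and fell in 3, although all 27 replication genes fell. Higher were thus 53.3% and lower 20%, beside 16.4% and 14% of all genes. H2AC8 went from 70.4 and 66.8 to 173 and 161 (1.28 ± 0.09), the linker histone H1-2 from 535 and 643 to 1213 and 1251 (1.07 ± 0.08) and H4C8 from 58.8 and 158 to 163 and 369 (1.35 ± 0.20). The members that fell were H2AX (-0.71), H2AZ1 (-0.37) and MACROH2A1 (-0.28), which encode variant histones and were named after their values were seen. Clustered histone genes are near-identical, so which copy was measured is uncertain. Without the marked probe sets 5 were higher and 1 lower, and MACROH2A1 was called higher (0.33, adjusted p = 0.012).

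Of 26 cytokines and chemokines 4 were higher (2 without the osimertinib array) and 4 lower, shares of 15.4% each that lie near the 16.4% and 14% of all genes. IL11 fell from 659 and 507 to 197 and 169 (-1.67 ± 0.10), and its relative LIF by 0.49 on the log2 scale. IL6, of the same family, went the other way, from 105 and 115 to 183 and 262 (1.00 ± 0.21); it was not called without the osimertinib array (0.86) or the vehicle array with L-histidinol (0.60). Genes that YAP and TEAD induce were higher in 7 of 20 cases and lower in 6, shares of 35% and 30%. For the p53 pathway genes below the shares were 33.3% and 22.2%, beside 16.4% and 14% of all genes. ANKRD1, a standard YAP target, rose by 0.98, and F3, the tissue factor, fell by 0.66. Genes of the p53 pathway were higher in 6 of 18 cases and lower in 4 (2 without the osimertinib array with L-histidinol), with TP53I3 at 0.94 ± 0.08 and the nuclease AEN at -0.94 ± 0.10. Squamous barrier genes were higher in 4 of 23 cases (17.4%, near the 16.4% of all genes, and 2 without the osimertinib array) and lower in 1, with KRT80 at 0.78 ± 0.12 and KRT15 at -0.94 ± 0.15.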
